A study of Mus musculus with 2 samples.

Results

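Cds1 (ENSMUSG00000029330) encodes a CDP-diacylglycerol synthase, and the data describe the circular RNAs (circRNAs) made from it in wild-type mouse crypts, the epithelial pockets of the small intestine. A circRNA is a loop of RNA closed by back-splicing, in which an exon's end is spliced to an exon start that lies at or before it in the gene. Sequencing reads that cross this join are called back-splice reads. The members were all circRNAs of the deposited table whose gene name entry includes Cds1, which gave 6 of 1132. Cds1 was chosen by measured values, namely its number of circRNAs and its high level in earlier results of these data, so its number of circRNAs, its level and its rank are given as a description. Total RNA was sequenced from 1 group of 2 libraries, replicates 1 and 2. The titles name crypts and the cell type entry names stem cells, while strain, age, sex and any sort of the cells are not stated there. The table summed to 3546 back-splice reads for replicate 1 and 4441 for replicate 2. Whether separate animals were used is not said in the labels, so the spread between the libraries may be technical. The p-values below are set against counting error and compare these libraries only.

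Phospholipids of several classes are made from phosphatidic acid. CDP-diacylglycerol synthases join phosphatidic acid to CTP and give CDP-diacylglycerol, the precursor of phosphatidylinositol and of phosphatidylglycerol and cardiolipin. Cds1 and its paralog Cds2 encode enzymes of the endoplasmic reticulum membrane, and Tamm41 encodes the mitochondrial enzyme for the same step. Phosphatidylinositol is in turn the source of the phosphoinositides used in signalling. The circRNAs described here are RNA loops, and no enzyme activity, protein or lipid was measured.

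Cds1 lies on the forward strand of chromosome 5, 101765130 to 101823858 (mm10), and its protein-coding transcript has 13 exons. All 6 circRNAs start at exon 2 or exon 3 and end between exon 3 and exon 6. The sequence at each back-splice join is shown because it is the only part that tells a loop from the linear transcript. It comes from the GENCODE M21 transcript. The last 20 bases before the join are in lower case and the first 20 bases after it are in capitals, 5′ to 3′.
Exons 2 to 5: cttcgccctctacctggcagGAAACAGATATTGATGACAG
Exons 3 to 5: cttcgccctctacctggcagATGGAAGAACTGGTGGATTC
Exons 2 to 6: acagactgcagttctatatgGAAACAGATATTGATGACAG
Exons 2 to 4: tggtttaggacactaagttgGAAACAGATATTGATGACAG
Exons 2 to 3: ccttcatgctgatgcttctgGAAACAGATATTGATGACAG
Exons 3 to 5, internal end: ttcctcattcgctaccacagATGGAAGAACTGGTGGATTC
The capitals are the same in the 4 circRNAs that start at exon 2 and the same in the 2 that start at exon 3. The lower-case bases are the same in the first 2 lines, which share the end of exon 5.

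The circRNA with most reads, of exons 2 to 5, spans chromosome 5, 101781375 to 101798516, and is 463 bases long when spliced. The second, of exons 3 to 5, spans 101791475 to 101798516 and is 335 bases long. A back-splice read shows the join and not which exons lie between, so lengths assume that every exon from start to end is kept. On that assumption the loops differ by exon 2, which is 128 bases long, and share every base of exons 3, 4 and 5. Exon 2 is printed here in lower case, followed in capitals by the first 20 bases of exon 3, with which the shorter loop begins.
Exon 2 and start of exon 3: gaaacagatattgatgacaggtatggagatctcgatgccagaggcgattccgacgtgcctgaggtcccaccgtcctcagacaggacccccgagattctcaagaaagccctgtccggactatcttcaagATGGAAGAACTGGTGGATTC

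Both leading circRNAs had reads in both libraries. The circRNA of exons 2 to 5 had 29 reads in replicate 1 and 36 in replicate 2, and that of exons 3 to 5 had 28 and 20. In replicate 1 they were nearly equal, with 1.04 reads of the first for each read of the second, and in replicate 2 this ratio was 1.80. The odds of the first over the second were 1.73 times as high in replicate 2 as in replicate 1, with a 95% interval from 0.766 to 3.96 (Fisher's exact test, two-sided, p = 0.184). A difference between the libraries in the balance of these loops was thus not detectable at this depth. Where libraries differ, fewer cells of a type and less RNA per cell cannot be told apart.

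**Figure D1:**
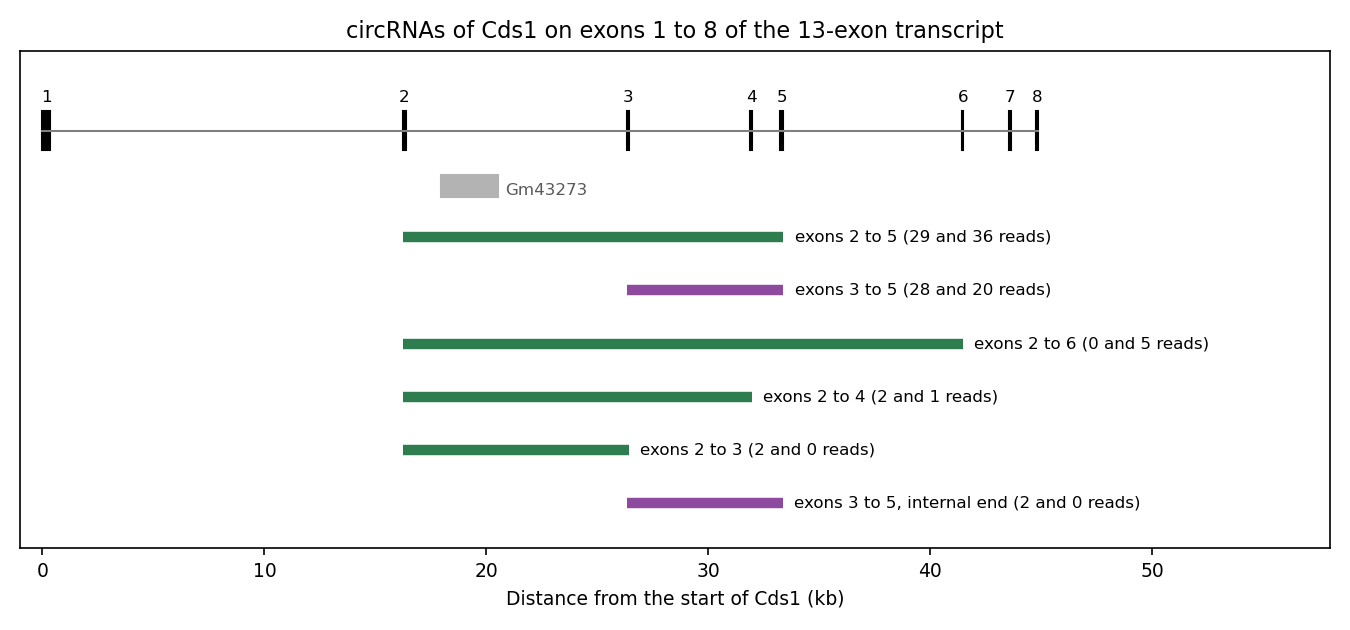
The 6 Cds1 circRNAs (coloured bars) under exons 1 to 8 of the transcript (black, numbered), by distance from the start of the gene in kb. Green bars start at exon 2 and purple bars at exon 3, and each bar carries its back-splice reads in replicates 1 and 2. The noncoding gene Gm43273 (grey) lies between exons 2 and 3.

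The other 4 circRNAs were rare, with 12 of the 125 reads. The circRNA of exons 2 to 6 (101781375 to 101806621, 522 bases) was a listed 0 for replicate 1, with 5 reads for replicate 2. That of exons 2 to 4 (101781375 to 101797101, 323 bases) had 2 reads and 1 read. That of exons 2 to 3 (101781375 to 101791571, 225 bases) was seen with 2 reads in replicate 1 alone. The sixth started at exon 3 and ended inside exon 5 (101791475 to 101798487, 306 bases), again with 2 reads in replicate 1 alone. In all, 3 of the 6 were present in both libraries, among them both leading loops, and 3 were listed in 1 library.

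**Figure D2:**
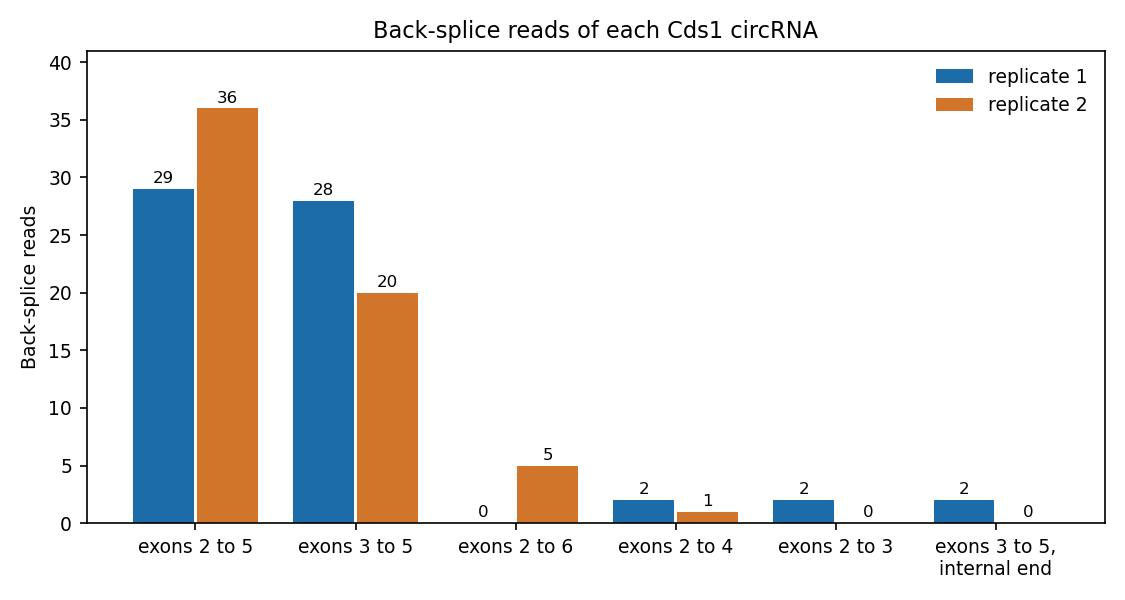
Back-splice reads (y axis) of each Cds1 circRNA (x axis) in replicate 1 (blue) and replicate 2 (orange), with the count above each bar. Exons 2 to 5 (29 and 36 reads) and exons 3 to 5 (28 and 20 reads) stand far above the other 4, none of which exceeds 5 reads.

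The internal end lies 29 bases before the annotated end of exon 5. The last 59 bases of that exon (chr5:101798458-101798516, forward strand) are printed because they hold both ends, and the 29 bases that this circRNA lacks are in capitals.
End of exon 5: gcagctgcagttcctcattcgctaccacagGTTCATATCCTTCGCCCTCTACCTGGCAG
The capitals begin with GT, the letters with which most introns begin, and the base string before them ends in ag, as the annotated end of exon 5 does. With 2 reads in 1 library, use of this end rests on very few molecules, and no linear junction reads were analysed here.

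Taken by their ends, Cds1 circRNAs used 2 starts and 5 ends. The end of exon 5 was joined in 57 of 63 Cds1 reads of replicate 1 (90.5%, with an exact Clopper-Pearson 95% interval of 80.4 to 96.4%) and in 56 of 62 of replicate 2 (90.3%, 80.1 to 96.4%), a mean of 90.4 ± 0.109% (SD, n = 2). Its share was nearly the same in both libraries. The start of exon 2 was used in 33 of 63 reads in replicate 1 (52.4%, 39.4 to 65.1%) and in 42 of 62 in replicate 2 (67.7%, 54.7 to 79.1%), a mean of 60.1 ± 10.9%. The remaining reads started at exon 3, 47.6% in replicate 1 and 32.3% in replicate 2. The intervals of the libraries overlap. The difference in start use had p = 0.101 in Fisher's exact test (two-sided), and that in use of the main end had p = 1 (Fisher's exact test, two-sided), both comparisons chosen after the counts were seen. These intervals and those that follow account for counting error alone, since copies of 1 molecule could not be told from separate molecules.

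**Figure D3:**
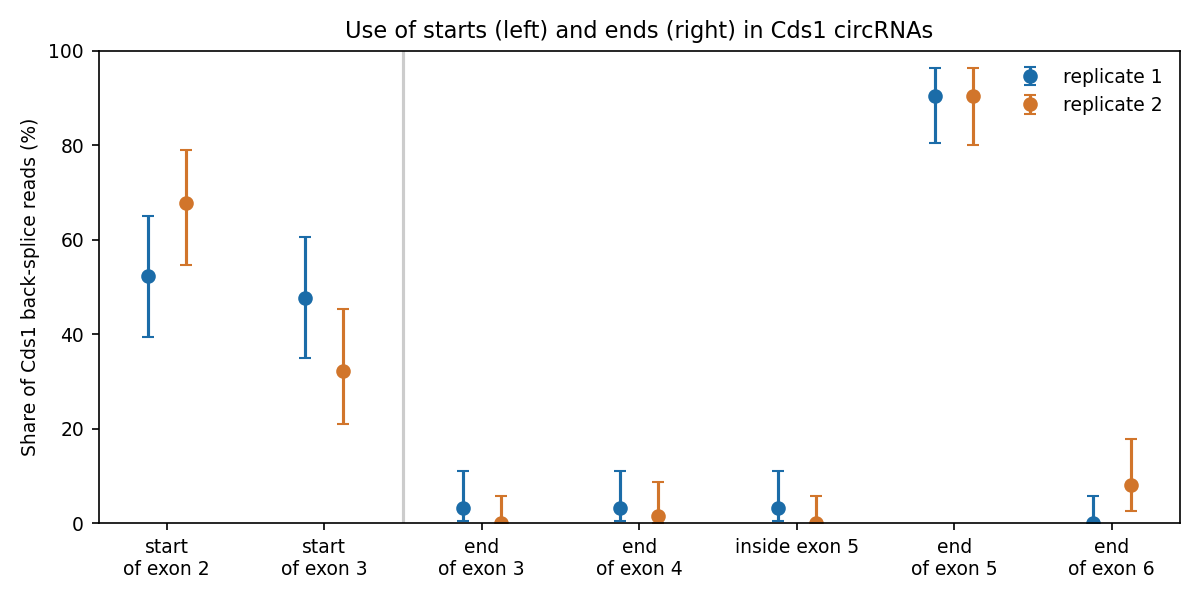
Share of Cds1 back-splice reads (y axis, %) at each start (left of the grey line) and each end (right) in replicate 1 (blue) and replicate 2 (orange). Bars are 95% Clopper-Pearson intervals. The end of exon 5 takes 90.5% and 90.3%, and the starts divide between exon 2 and exon 3.

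As shares of all Cds1 reads, exons 2 to 5 held 46.0% (33.4 to 59.1%) in replicate 1 and 58.1% (44.8 to 70.5%) in replicate 2. Exons 3 to 5 held 44.4% (31.9 to 57.5%) and 32.3% (20.9 to 45.3%). For each loop the intervals of the libraries overlap. Over all 6 circRNAs the composition differed between the libraries (Fisher's exact test, two-sided, p = 0.022), and this call rested on the rare loops. It was lost without the circRNA of exons 2 to 6 (p = 0.192), with the 3 circRNAs present in both libraries (p = 0.362) and when each listed 0 was taken as 1 read (p = 0.335), all in the same exact test. Single reads may be missing from the table, since of 373 circRNAs in the table with 2 reads in total only 1 split them between the libraries. The table is not free of single reads, however, as 41 circRNAs had 1 read in total.

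The 2 leading loops lay between long introns of the gene. Of its 12 introns, the 3 longest are intron 1 (15885 bases), intron 2 (9972 bases) and intron 5 (8046 bases). These are the introns just before exon 2, just before exon 3 and just after exon 5, and the loops bounded by them held 113 of the 125 reads. The ends of exons 3, 4 and 6, which were rarely used, are followed by introns of 5432, 1275 and 2044 bases. Over the 1008 circRNAs of the table whose ends both lie at splice sites of 1 transcript, the median intron was 11050 bases upstream and 8216 bases downstream, so the 15885 bases before exon 2 are above the upstream median, the 9972 bases before exon 3 are below it, and the 8046 bases after exon 5 are near the downstream median. Over the same 1008 the median spliced length was 368 bases, between the 335 and 463 bases of the leading Cds1 loops, and 35.7% started at exon 2. With a handful of ends in 1 gene, this is a description without a test.

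All bases of exons 2 to 6 are coding, and the annotated start codon is in exon 1, which none of the 6 includes. The number of bases was a multiple of 3 for 3 loops (exons 2 to 6, exons 2 to 3, and the loop with the internal end), so the reading frame returns to itself at the join. In those 3, the annotated frame met no stop codon when read round the loop for 3 laps. In both leading loops and in that of exons 2 to 4 the frame shifts at the join. The longest run of codons from an in-frame ATG to a stop, read across the join, was 102 codons for exons 2 to 5, 112 for exons 3 to 5 and 108 for exons 2 to 4. Each loop held 4 to 6 in-frame ATG codons. These are properties of the letters, and translation was not measured.

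The table names a second gene, Gm43273, beside Cds1 for 4 of the 6 circRNAs. Gm43273 is an unspliced noncoding gene at chromosome 5, 101783078 to 101785671, on the same strand, and it lies wholly inside intron 2 of Cds1. The 4 are those that start at exon 2 and so span it, and none of their ends falls in it. Cds1 is also listed as a synonym of Chek2, a checkpoint kinase gene elsewhere on chromosome 5, but all 6 carry the Ensembl identifier of the synthase gene and lie within it.

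Levels are given as CPM scaled to the sum of each library's column of back-splice reads, and 1 read amounts to 282 CPM for replicate 1 and 225 CPM for replicate 2. Each circRNA has 1 join, so counts were not divided by length. Summed over its circRNAs, Cds1 had 63 reads in replicate 1 (1.78% of the listed reads, interval 1.37 to 2.27%) and 62 in replicate 2 (1.40%, 1.07 to 1.79%). The summed level was 17766.5 CPM in replicate 1 and 13960.8 CPM in replicate 2, a mean of 15863.7 ± 2691 CPM (SD, n = 2), and the difference did not pass a two-sided exact binomial test (p = 0.178, or 0.428 after Benjamini-Hochberg adjustment over 824 hosts). Among single circRNAs, exons 2 to 5 ranked 13 in replicate 1 and 15 in replicate 2, and exons 3 to 5 ranked 14 and 29.

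By the mean summed level Cds1 was number 7 of 824 hosts. Just above it were Slc43a2, an amino acid transporter gene, Sis, the sucrase-isomaltase gene, and Rpph1, which encodes the RNA part of RNase P. Slc43a2 had 21150.6 CPM in replicate 1 and 10583.2 CPM in replicate 2, and Sis had 18048.5 and 15311.9 CPM. The range of Cds1 lay inside that of Slc43a2 and overlapped that of Sis, so their order is not set beyond the spread. Rpph1, with 34123 CPM in replicate 1 and a listed 0 in replicate 2, owed its place to 1 library. Just below were the Mediator gene Med13l (14664.4 and 13060.1 CPM), Fam160b1 (14946.4 and 10358 CPM) and Vapa, a membrane contact protein gene (11562.3 and 11934.2 CPM). Med13l and Fam160b1 overlapped Cds1, and both values of Vapa were under the lower value of Cds1. The hosts most like Cds1 over the 2 libraries, by the distance between their log2(CPM + 1) values, were Sis (0.14), Med13l (0.29) and Btnl1 (0.32), a butyrophilin-like gene with 18330.5 and 17338.4 CPM. Sis and Med13l had 1 circRNA each, Btnl1 had 4 and Cds1 had 6.

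**Figure D4:**
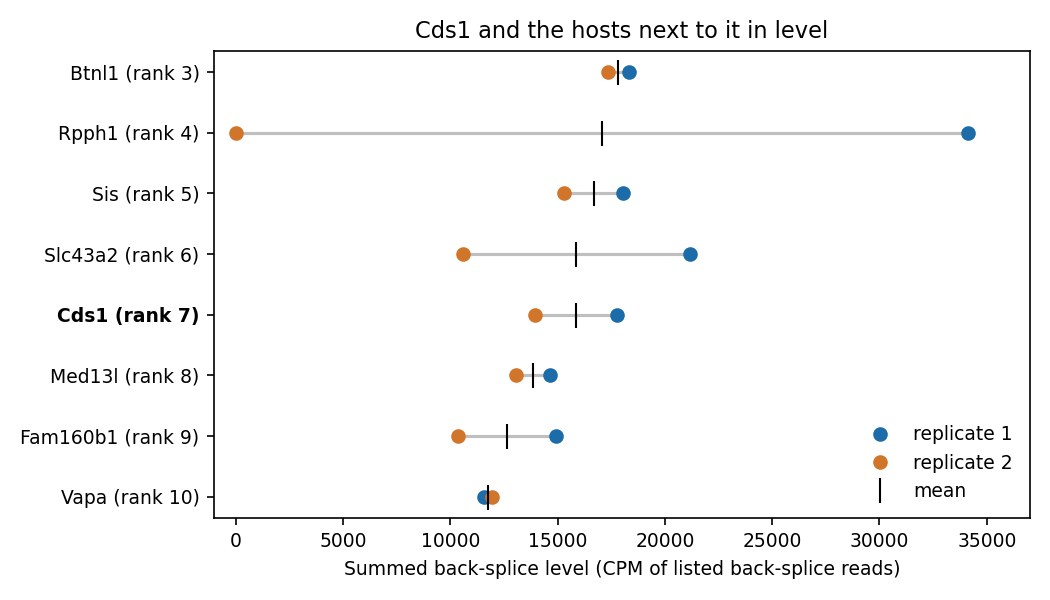
Summed back-splice level (x axis, CPM) of Cds1 and the hosts next to it in rank or nearest to it over both libraries, with replicate 1 in blue, replicate 2 in orange and the mean as a black tick. Cds1 (17766.5 and 13960.8 CPM) overlaps its neighbours except Vapa.

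Tested one by one, none of the 6 Cds1 circRNAs was called different between the libraries (0 at an adjusted p under 0.05 and 0 at an unadjusted p under 0.05, exact binomial test). Over all 1132 circRNAs 1.59% passed the adjusted threshold and 9.36% the unadjusted one, so 0 of 6 is near the background. With 2 or 3 reads no split reaches an unadjusted p under 0.05 in this test. The circRNAs of exons 2 to 4, of exons 2 to 3 and with the internal end could thus not be called. With the expected split taken from the totals at splice sites, 1 of the 6 had an unadjusted p under 0.05 and still 0 an adjusted one (exact binomial test). Exons 2 to 5 had 8178.2 and 8106.3 CPM (adjusted p = 1, exact binomial test), and exons 3 to 5 had 7896.2 and 4503.5 CPM (adjusted p = 0.433, exact binomial test). The first loop was level in the libraries and the second was lower in replicate 2, by less than the test could resolve. The listed 0 and 5 reads of exons 2 to 6 had an adjusted p of 0.433 in the same exact test.

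Of 824 hosts, 75.7% had 1 circRNA. With 5 circRNAs at splice sites, Cds1 was among 7 hosts that reached that number, and 17 hosts had at least 4. Among these 17, Cds1 had the most reads and the largest share at 1 end: 91.9% of its 123 reads at splice sites joined the end of exon 5, against a median of 64.3%. Its most used start took 61.0% (median 54.5%) and its leading circRNA 52.8% (median 51.6%), near the middle of the 17. The largest share at 1 start was higher than the 91.9% of Cds1 at 1 end. It was 93.3% of 15 reads, in Tc2n, which was named after its values were seen. Zfp827, a zinc finger gene with 69 reads, had 52.2% at its main end, and the transporter gene Slc12a8, with 31 reads, had 74.2%. Rere, Arhgap26 and Fut8, with 24, 17 and 14 reads, had 54.2%, 58.8% and 64.3%. Nearest to Cds1 were Rps6kc1 with 85.7% of 28 reads and Dennd1b with 81.8% of 44 reads, both named after their values were seen. Since Cds1 was chosen for its reads and its number of circRNAs, these ranks carry no test, and shares from 14 reads have a wide counting error.

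**Figure D5:**
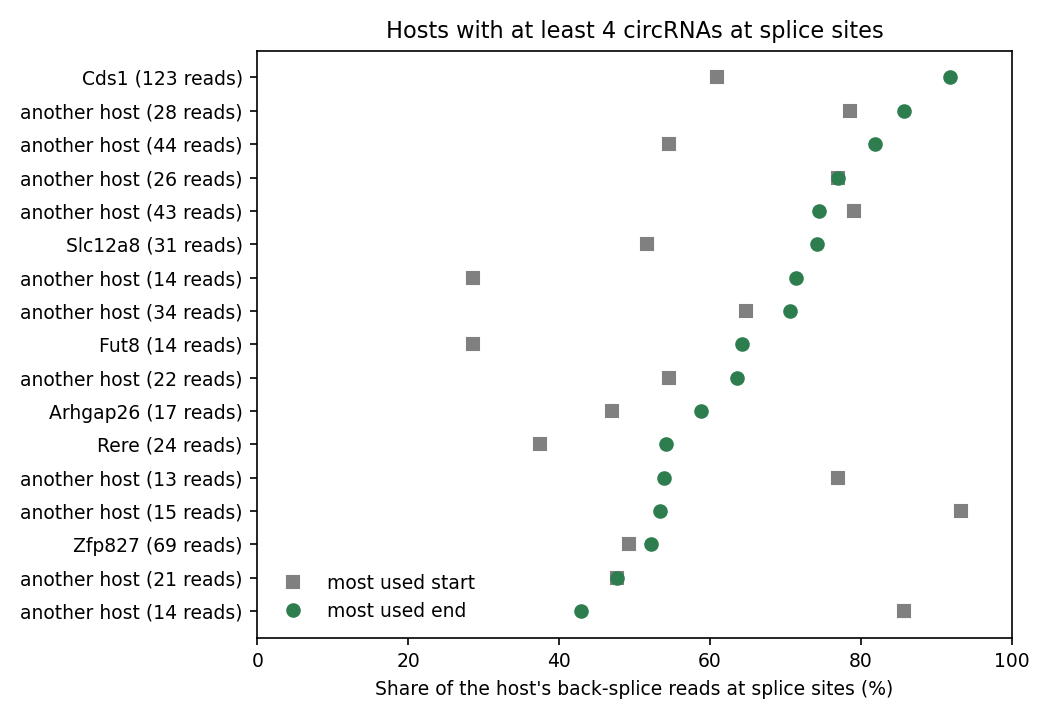
Share of each host's back-splice reads (x axis, %) at its most used end (green circles) and most used start (grey squares) for the 17 hosts with at least 4 circRNAs at splice sites, with their reads in brackets. Cds1 has the largest share at 1 end (91.9%), and its share at 1 start (61.0%) is near the middle. The largest share at 1 start (93.3%) is that of another host.

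Pairs of loops that share a start or an end were frequent. In 35 hosts both leading circRNAs at splice sites had reads in both libraries, and in 21 of them (60.0%) the pair shared either its start or its end. The Cds1 pair shared its end, and pairs that shared a start were not counted apart from those. By reads of the second circRNA, Cds1 with 48 was number 2 of these 21. Rasa2, a gene of a GTPase-activating protein of RAS that was named after its values were seen, was first, with 117.

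Of 67 genes in a list of phospholipid synthesis and use, 7 had a circRNA (10.4%), and of the 66 without Cds1 it was 6 (9.09%), beside 3.95% of 20620 multi-exon protein-coding genes. The list was written with Cds1 known as a host, expression was not matched, and no set test was made. Cds1 was the only listed host among the 3 CDP-diacylglycerol synthases: Cds2 and Tamm41 had no circRNA in the table. None of the 10 acyltransferases and 3 phosphatidate phosphatases was a host, nor was any of the 4 genes of the steps after CDP-diacylglycerol. Of the 10 diacylglycerol kinases 1 was a host, Dgkd. Beside 3.95% of all genes, counts of 0 in classes this small are near the background. Cds1 held 63 of the 82 reads of the list in replicate 1 (76.8%, interval 66.2 to 85.4%) and 62 of 98 in replicate 2 (63.3%, 52.9 to 72.8%).

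The 6 other hosts were spread over the pathway. Pitpnb, which encodes a phosphatidylinositol transfer protein, had a circRNA of exons 4 to 7 with 7 reads in replicate 1 and 17 in replicate 2 (chromosome 5, 111346483 to 111349574). Pip5k1b, a gene of a phosphatidylinositol phosphate kinase, had 10 and 6 reads over 4 circRNAs, of which 1 was listed as antisense with 1 read. Its loops of exons 8 to 13 and of exons 8 to 11 had 3 reads in each library, and that of exons 12 to 13 had 3 reads in replicate 1 and a listed 0 in replicate 2. Exons 8 to 13 thus shared its start with one loop and its end with the other, another nested set at a far lower level than Cds1. Ptdss1, a phosphatidylserine synthase gene, had 8 reads, all from replicate 2 (exons 5 to 6). Dgkd, a diacylglycerol kinase gene, had 0 and 3 reads, Etnk1, an ethanolamine kinase gene, 2 and 0, and Pip5k1c 0 and 2. No host of the list passed the exact binomial test between the libraries (0 of 7 at an adjusted p under 0.05, 1 of 7, Ptdss1, at an unadjusted p under 0.05), where 2.18% of 824 hosts passed the adjusted and 12.9% the unadjusted threshold. Dgkd, Etnk1 and Pip5k1c, with 2 or 3 reads in total, could not have passed at any split.

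The cell types behind the Cds1 loops cannot be read from this table. Defining markers of intestinal stem cells were hosts in 0 of 7 genes and those of Paneth cells in 0 of 4. Over all 20620 multi-exon protein-coding genes 3.95% were hosts, so both counts are near the background. Absorptive enterocyte markers were hosts in 9 of 10 genes, 5 of them with a circRNA in both libraries and 4 with one at splice sites. The marker lists were chosen with earlier results of these data known, so these counts are a description without a test. Goblet markers were hosts in 3 of 5 (0 in both libraries and 0 at splice sites). Proliferation markers were hosts in 1 of 4 (1 in both libraries) and immune markers in 2 of 4 (1 in both libraries). Of all 1132 circRNAs in the table, 330 had reads in both libraries. A gene can be expressed without giving a listed circRNA, so a missing host does not show that a cell type was absent.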

How the data were processed

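Libraries were prepared from total RNA of crypts with an MGI kit, per the labels' protocols. Per the submitters' processing notes, mm10 was the genome build. How reads were aligned, and how circRNAs were called and filtered, is not given in the sources used here. Raw counts of back-splice reads per circRNA and library stood in the deposited table, per the file headers, beside a normalised signal headed CPM, each count times 272 in replicate 1 and 233 in replicate 2, which was not used for levels. A library's listed total is not its sequencing depth. No column of sample values was left unused.

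Positions were compared with GENCODE M21, on the same build. A circRNA was at splice sites when its start and its end were internal exon edges of 1 transcript. The host was that transcript's gene, or else the named gene that matched more ends, and 4 circRNAs had no gene. Sequences were taken from the GENCODE M21 transcripts, and intron sequence was not used here. Levels, shares with Clopper-Pearson intervals, exact binomial tests over the whole table (Benjamini-Hochberg, threshold 0.05) and Fisher's exact tests were computed with scipy 1.17.1 and checked on simulated data. These tests compare the libraries, not conditions. For the binomial test the simulated counts were far deeper than the real ones, so its power at few reads was not checked. Alternatives used edgeR 4.0.16 (TMM) and DESeq2 1.42.0 (size factors only).

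The members and lists were chosen with earlier results of these data known. Genes named are Cds1, all hosts of the phospholipid list, the 3 hosts on either side of Cds1 in level, the 3 nearest over both libraries and 5 other hosts with at least 4 circRNAs at splice sites. Rasa2, Rps6kc1, Dennd1b and Tc2n were named after their values were seen.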

Additional observations from a re-analysis of the deposited data

How the results depend on the processing

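Of 43 alternative values, 27 kept their side of the threshold or stayed within the spread between libraries. Part of these were fixed in advance, since with 2 libraries the level or share in either one alone always lies within their SD. The share of the 2 leading circRNAs and that of the main end come from the same reads and were counted separately. The summed level of Cds1 kept within the spread between libraries under TMM, DESeq2 size factors, the total at splice sites and rows in both libraries. It fell to 6482 CPM with the rows that name Cds1 alone, which leave out every loop from exon 2. The DESeq2 size factor was 1.41 for each library, so that alternative only took the libraries as equal in size. The share of the 2 leading circRNAs, and that of the main end, was 97.4% over rows in both libraries and 91.9% over rows at splice sites, against a spread of 0.109 percentage points. Over rows naming Cds1 alone the value was 96.7%, but there exons 3 to 5 was the only leading circRNA left. Rows naming Cds1 alone could give no value for the leading circRNA or the start of exon 2. The p of 0.022 for composition (Fisher's exact test) was 0.0101 with rows under 5 reads summed, and above the threshold with the 2 leading circRNAs alone (0.184), rows in both libraries (0.362), classes by start (0.101), the main end against others (1), each listed 0 as 1 read (0.335) and without exons 2 to 6 (0.192), the last 4 chosen after seeing the data. The 7 phospholipid hosts were 3 with a circRNA in both libraries, 4 with a circRNA of at least 5 reads, and 4 to 6 in either library alone. For comparison, 330 of all 1132 circRNAs had reads in both libraries. A library left out leaves no test between libraries. No paired analysis was possible because the labels give 1 group. The 4 rare loops rest on 12 reads, so their shares carry a large counting error.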
